A study of Mus musculus with 6 samples.

Results

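The heat shock proteins and the J-domain cochaperones were read as one gene module from Affymetrix Mouse430_2 arrays of mouse heart. Members were the genes whose symbol in the platform table places them in the Hspa, Hspb, Hspd, Hspe, Hsph or Hsp90 families or in the Dnaja, Dnajb or Dnajc families, and whose probe set carries that symbol alone. There were 70 such genes, read by 169 probe sets, among 18193 genes with a symbol on the array. They comprise 13 Hspa, 8 Hspb, 2 Hsp90 and 3 Hspd, Hspe and Hsph genes, with 4 Dnaja, 13 Dnajb and 27 Dnajc genes. Where several probe sets read one gene, the one with the highest mean over the 6 arrays was taken.

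Hearts labelled as knockout (KO) for estrogen-related receptor alpha (ERRα), the orphan nuclear receptor encoded by Esrra, were compared with wild-type (WT) hearts. There were 3 KO and 3 WT hearts, one array each, all from male mice under basal conditions. The 3 KO mice, WT 2 and WT 3 are given as C57BL/6J aged 2 to 3 months, and WT 1 has no strain or age entry and a comment in its array record that gives another WT mouse number. The labels do not say how the null allele was made. Values are MAS5 signals on a linear scale, and differences are on log2 of signal plus 16, KO minus WT, which understates the change of dim genes.

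Chaperones of the HSP70 family bind unfolded segments of proteins in cycles of ATP hydrolysis. J-domain proteins deliver the clients and trigger hydrolysis, nucleotide exchange factors end the cycle, and HSP90 takes over clients that are near their folded state. The small heat shock proteins hold unfolding proteins without ATP, and several of them are abundant in muscle, where they sit at the sarcomere. Some members are made at all times, while others are switched on by heat shock factors, which bind repeats of the letters GAA and TTC near the start of the gene.

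Before the results, the labels were checked against Esrra. Its probe set gave 180.1, 24 and 18 in KO 1 to 3, against 368.1, 394.4 and 349.1 in WT 1 to 3, and a further one was dim in all 6. The heart labelled KO 1 therefore kept 48.6% of the WT mean, against 6.48% in KO 2 and 4.86% in KO 3, and its signal goes against its label. Every direction below is drawn with that heart included unless its omission is stated. WT 1 was the brightest array, with a mean signal trimmed by 2% of 71.7, against 56.8 to 63.1 on the other 5. The 8 ventricular myocyte markers were bright in all 6 hearts, with a summed signal of 53939 to 58036 in the KO hearts and 57365 to 64043 in the WT hearts.

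The starts of the genes are shown first, because the textbook regulator of the inducible members acts there. The 250 bases before the annotated start are given for the HSP70 pair, for Dnaja1, for Hspb1 and for Hspb6, from RefSeq on GRCm38.p6. The first 3 genes were higher in the hearts labelled KO, Hspb1 did not pass the test and Hspb6 was lower. Capitals mark GAANNTTC or TTCNNGAA, the letters searched on both strands for a heat shock element. Hspa1a lies on chr17:34972157-34972406 and Hspa1b on chr17:34959239-34959488, both on the minus strand. Dnaja1 lies on chr4:40722218-40722467, Hspb1 on chr5:135887669-135887918 and Hspb6 on chr7:30553051-30553300, all on the plus strand.
Hspa1a: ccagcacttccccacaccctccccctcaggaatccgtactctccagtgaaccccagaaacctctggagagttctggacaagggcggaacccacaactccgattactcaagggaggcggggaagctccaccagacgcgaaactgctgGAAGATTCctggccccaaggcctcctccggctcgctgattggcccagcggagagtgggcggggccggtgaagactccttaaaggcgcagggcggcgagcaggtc
Hspa1b: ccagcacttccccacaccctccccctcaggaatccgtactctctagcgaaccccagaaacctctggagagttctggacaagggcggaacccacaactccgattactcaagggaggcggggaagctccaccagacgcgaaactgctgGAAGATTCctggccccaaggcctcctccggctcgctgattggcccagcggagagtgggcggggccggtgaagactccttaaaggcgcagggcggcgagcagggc
Dnaja1: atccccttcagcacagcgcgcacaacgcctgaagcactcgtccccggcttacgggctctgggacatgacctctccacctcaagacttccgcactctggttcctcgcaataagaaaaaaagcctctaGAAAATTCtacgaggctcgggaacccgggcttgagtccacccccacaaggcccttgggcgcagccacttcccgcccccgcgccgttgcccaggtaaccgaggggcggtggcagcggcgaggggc
Hspb1: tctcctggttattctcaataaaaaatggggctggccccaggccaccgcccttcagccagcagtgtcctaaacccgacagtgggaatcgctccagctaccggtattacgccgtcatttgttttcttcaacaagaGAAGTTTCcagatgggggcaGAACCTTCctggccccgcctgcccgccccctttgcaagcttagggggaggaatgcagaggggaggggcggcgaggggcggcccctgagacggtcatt
Hspb6: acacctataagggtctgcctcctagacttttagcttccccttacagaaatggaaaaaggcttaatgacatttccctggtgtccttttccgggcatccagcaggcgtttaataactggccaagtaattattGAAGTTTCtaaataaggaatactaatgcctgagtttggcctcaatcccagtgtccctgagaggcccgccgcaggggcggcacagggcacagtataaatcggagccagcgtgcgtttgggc

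The Hspa1a and Hspa1b stretches differed at 3 of 250 bases, and in both the marked element begins 104 bases before the start. Dnaja1 held 1 element 124 bases before the first of its 3 annotated starts. Hspb1 held 2 elements, and Hspb6 held 1 at the second of its 2 starts. Promoter windows, each with 50 bases after the start as well, were found by gene ID for 57 of the 70 members, in 74 windows. Some windows overlap because they belong to one gene, and those of Hspd1 and Hspe1 overlap each other on opposite strands. Either form of the element was in 18 of the 74 windows (24.3%), against 15.1% of all 32851 windows. It was in 6 of 10 windows of the stress-inducible members and 1 of 13 of the constitutive cytosolic members. A run of 3 repeats (GAA, TTC and GAA with 2 free letters between neighbours, or its reverse complement) was in 6 of the 74 member windows (8.11%) and 0.603% of all windows. These 6 windows belong to 4 genes, Hspd1, Hspe1, Dnajb6 and Hsph1, and all are members that did not pass. Hsph1 is a stress-inducible member, and the run was in 2 of the 10 windows of that role. By call, either form of the element was in 3 of 8 windows of the members that rose, 1 of 3 of those that fell and 13 of 56 of the tested members that did not pass. None was found in the windows of Dnajb1, Dnajc3 and Hspb7, which passed the test. Hsp90aa1 and Hspa8 had no window, so the 8 windows come from 5 of the 7 members that rose. TCAAGGTCA, the element bound by ERR receptors, was in 0 of the 74 windows, against 0.423% of all. Its core AAGGTCA was in 3 (4.05%), among them the overlapping windows of Hspd1 and Hspe1, against 4.72% of all. These are matches of letters in one window per start, and the arrays do not measure binding.

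Hspa1a and Hspa1b, the inducible HSP70 genes, were higher in the hearts labelled KO, with Dnaja1, Dnajb1, Hsp90aa1, Hspa8 and Dnajc3, while the muscle small heat shock genes Hspb6 and Hspb7 were lower. Of the 63 members that passed the filter on dim probe sets, 7 rose and 2 fell, and 54 did not pass the test (limma, two-sided, Benjamini-Hochberg over 12946 genes, threshold 0.05). The members past the threshold were 14.3% of those tested, where the background over all genes was 2.97% (1.78% higher and 1.18% lower). In the same fit Esrra itself had a log2 difference of -2.58. The groups did not overlap for 19 of the 63 members (30.2%), against 16.2% of all genes tested. The KO hearts lay above the WT hearts for 9 of the 63 members, where the share over all genes tested was 6.81%. They lay below for 10 of the 63, where the share over all genes tested was 9.41%. The other 7 members (Dnajb3, Dnajb7, Dnajb8, Dnajc5b, Dnajc5g, Dnajc6 and Hspb9) had signals of 24.1 or less in every heart and were not tested. The median difference over the tested members was -0.02, beside -0.03 over all genes tested, with 29 positive and 34 negative. Without the heart labelled KO 1 the counts were 7 higher and 3 lower, without WT 1 they were 7 and 0, and without both, an alternative chosen after seeing the data, 10 and 2. Over all genes the same fits called 301 higher and 208 lower without KO 1, 105 and 22 without WT 1, and 431 and 167 without both. With no filter on dim probe sets 3 members were higher and 0 lower, where 48 and 18 of 18193 genes were called. Without the trend of variance on intensity the member counts were 4 and 0, where 114 and 57 genes were called. With no filter or no trend, fewer members and fewer genes were thus called. Without KO 1 or without WT 1 the higher members stayed at 7, while 301 and 105 genes were called higher.

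**Figure D1:**
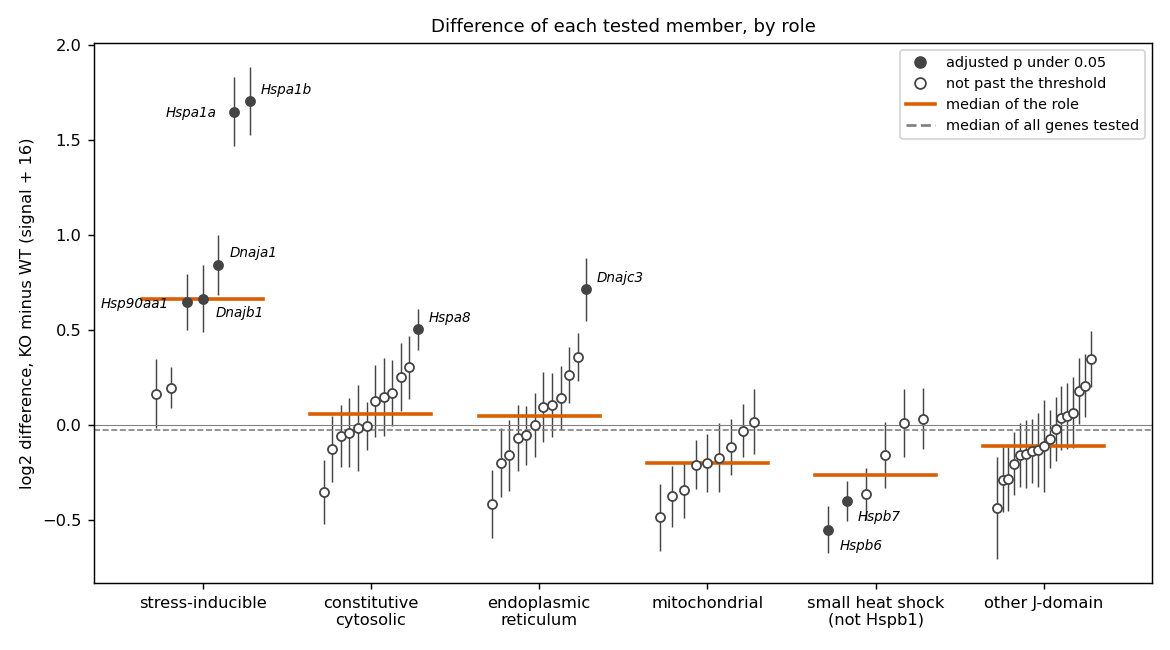
The log2 difference (KO minus WT, on signal plus 16) of each of the 63 tested members is plotted on the y axis by role on the x axis, with the standard error of the fit as bars. Filled points passed an adjusted p of 0.05, orange lines are role medians and the dashed line is the median of all genes tested. The stress-inducible role stands highest, with a median of 0.67, and the small heat shock role lowest, at -0.26.

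The 7 stress-inducible members are textbook targets of heat shock factor. The test called 5 of them higher and 0 lower and left 2 not passing, with a median difference of 0.67 and a range of 0.17 to 1.71. The role was set with results of these data known, and it does not hold every member with heat shock elements. Outside it, the members with more than 1 element in a window were Dnaja4 (0.30), Dnajb6 (0.04), Hspe1 (-0.11) and Hspd1 (-0.21). None of these passed as deposited. Hspa1a, one of the near-identical pair of genes for inducible HSP70, gave 102.9, 75.7 and 74.2 in KO 1 to 3, against 14.2, 15.5 and 17.5 in WT 1 to 3. Hspa1b, the other gene of the pair, gave 117.9, 152.1 and 112 in KO 1 to 3, against 36.1, 20 and 28.3 in WT 1 to 3. In both, every heart labelled KO lay above every WT heart, with no overlap. The means were 84.3 ± 16.2 and 15.7 ± 1.66 for Hspa1a, a ratio of 5.36, and 127 ± 21.7 and 28.1 ± 8.05 for Hspa1b, a ratio of 4.53 (KO and then WT, SD, n = 3 each). The log2 difference was 1.65 (SE 0.182, limma adjusted p = 3.93e-09) for Hspa1a and 1.71 (SE 0.179, limma adjusted p = 1.72e-09) for Hspa1b. The WT signals of Hspa1a lie near the median of all probe sets on those arrays, 12.4 to 16, and without detection calls they could not be told from background, so the ratio is uncertain. The pair may also share signal, because probes of one gene can bind the transcript of the other.

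Hspa1a was read by 1 probe set and Hspa1b by 3. The other Hspa1b probe sets gave log2 differences of 1.62 and 1.34, both without overlap of the groups. The heart labelled KO 1, which kept 48.6% of the WT signal of Esrra, had the highest Hspa1a signal of all 6. Without KO 1 the log2 difference was 1.52 for Hspa1a and 1.75 for Hspa1b, and both genes passed in all 19 alternatives, as did Dnaja1.

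Dnaja1 and Dnajb1 were the J-domain genes of this role, and both rose, while over the Dnaja, Dnajb and Dnajc families 3 of 38 tested genes rose, 0 fell and 23 had negative differences. Dnaja1, a farnesylated cytosolic J protein, gave 637.3, 637.9 and 703.4 in KO 1 to 3, against 451.7, 310.2 and 331.2 in WT 1 to 3. Its log2 difference was 0.85 (SE 0.158, limma adjusted p = 3.49e-04), and its other probe sets stood at 0.83 and 0.75. Dnajb1, the canonical inducible J protein of the cytosol, gave 170, 165.8 and 178.2 in KO 1 to 3, against 137.9, 80 and 95.3 in WT 1 to 3. The KO hearts lay close together and all above the WT hearts, of which WT 1 was the highest for both genes. For Dnajb1 the log2 difference was 0.67 (SE 0.176, limma adjusted p = 0.021), and the call was lost in 6 of 19 alternatives, among them without KO 2 (limma adjusted p = 0.0575), KO 3 (0.0832), WT 2 (0.205) or WT 3 (0.0864).

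Hsp90aa1, the inducible cytosolic HSP90, gave 933.2, 960 and 1045.2 in KO 1 to 3, against 749.3, 507.5 and 621.6 in WT 1 to 3. The groups did not overlap, the log2 difference was 0.65 (SE 0.149, limma adjusted p = 0.00553), and 2 further probe sets gave 0.63 and 0.58. It did not pass without KO 3 (limma adjusted p = 0.0537) or without WT 2 (0.0968). Hspb1, the small heat shock protein that responds to heat and oxidants, gave 4261.1, 4177.3 and 3930.2 in KO 1 to 3, against 3645.5, 3606 and 3527 in WT 1 to 3. All KO hearts were above all WT hearts, but the log2 difference was only 0.20 (SE 0.107) and did not pass (limma adjusted p = 0.471). Hsph1, an HSP110 exchange factor for HSP70, gave 281.7, 295.9 and 174.4 in KO 1 to 3, against 275.9, 174.2 and 209.9 in WT 1 to 3. Its groups overlapped, with a log2 difference of 0.17 (SE 0.182) that did not pass (limma adjusted p = 0.807).

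**Figure D2:**
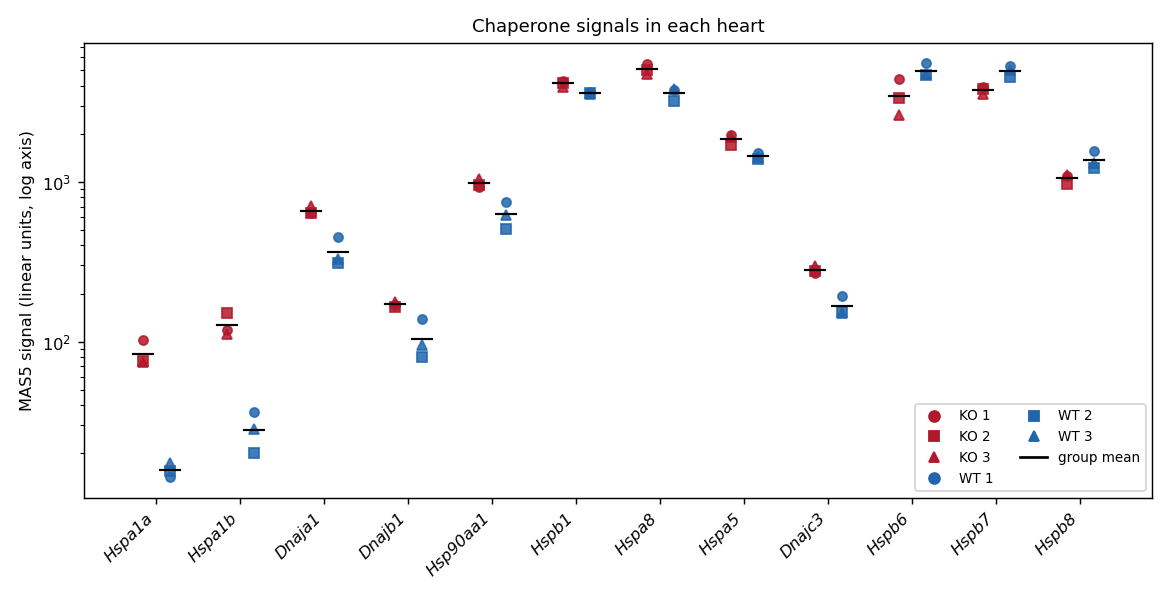
MAS5 signal (y axis, log scale, linear units) of 12 members in each heart, with KO hearts in red left of WT hearts in blue, replicate number by symbol, and a black line at each group mean. Hspa1a sits at 74.2 to 102.9 in the KO hearts and at 14.2 to 17.5 in the WT hearts. Levels of different genes come from different probe sets and are not comparable with each other.

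Among the 12 constitutive cytosolic members 1 rose, 0 fell and 11 did not pass, and the median difference was 0.06. The one that rose was Hspa8, the constitutive HSC70 that uncoats clathrin and serves chaperone-mediated autophagy. It gave 5454, 5004.3 and 4735.4 in KO 1 to 3, against 3732.4, 3187.8 and 3788.2 in WT 1 to 3, with no overlap. The log2 difference was 0.50 (SE 0.108, limma adjusted p = 0.00256). This probe set, like its next brightest (0.36), carries the suffix _x, and another (0.44, with overlap of the groups) carries the suffix _a. Both suffixes were treated alike, as a mark of probes shared between transcripts. Without all of these Hspa8 was read from a dim probe set, with signals of 5.9 to 22.3, at 0.33, and did not pass (limma adjusted p = 0.592). As the mean of its probe sets it was at 0.41 (limma adjusted p = 0.139).

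The other constitutive members lay on both sides of 0. Dnaja4, a J protein of the same class as Dnaja1, gave 506.3, 595.6 and 509.6 in KO 1 to 3, against 579.2, 390.2 and 353.1 in WT 1 to 3. WT 1 lay among the KO hearts, and the log2 difference of 0.30 (SE 0.164) did not pass as deposited (limma adjusted p = 0.464). It passed with array weights (0.48, limma adjusted p = 0.0318) and without KO 1 and WT 1 (0.55, 0.0227), and its other probe sets, at 0.33 and 0.27, had no overlap between the groups. Hspa4l, an HSP110 relative of Hspa4, gave 179.5, 167.4 and 158.5 in KO 1 to 3, against 253.5, 183.4 and 224.7 in WT 1 to 3. Its groups were apart, but the log2 difference of -0.35 (SE 0.168) did not pass. Without shared-probe sets Hspa4l was read from its next brightest probe set and turned to 0.05. The dimmer probe sets were negative, at -0.18, -0.26 and -0.22, and the groups overlapped in all but the brightest. Dnaja2, another cytosolic J protein, was at -0.0051, and quantile normalization turned it to 0.015. Its dimmer probe sets did not agree, at 0.013 with overlap of the groups and at -0.425 and -0.269 without. Hspa12a, a divergent HSP70, was at 0.25 (SE 0.177), and Hspa4 at -0.06 (SE 0.164). Hspa13, counted among these members although the protein is microsomal, was at 0.17 (SE 0.176).

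The inducible and constitutive cytosolic roles thus differed by 0.60 in their medians (0.67 and 0.06). Heart by heart, relative to the WT mean of each gene, the inducible median minus the constitutive median was 0.57, 0.55 and 0.56 in KO 1 to 3, and 0.04, -0.14 and 0.20 in WT 1 to 3. The 3 KO hearts were nearly alike and none overlapped a WT heart. The range of this gap over the alternatives was 0.51 to 0.75. No test is given, since the members were chosen with results of these data known.

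**Figure D3:**
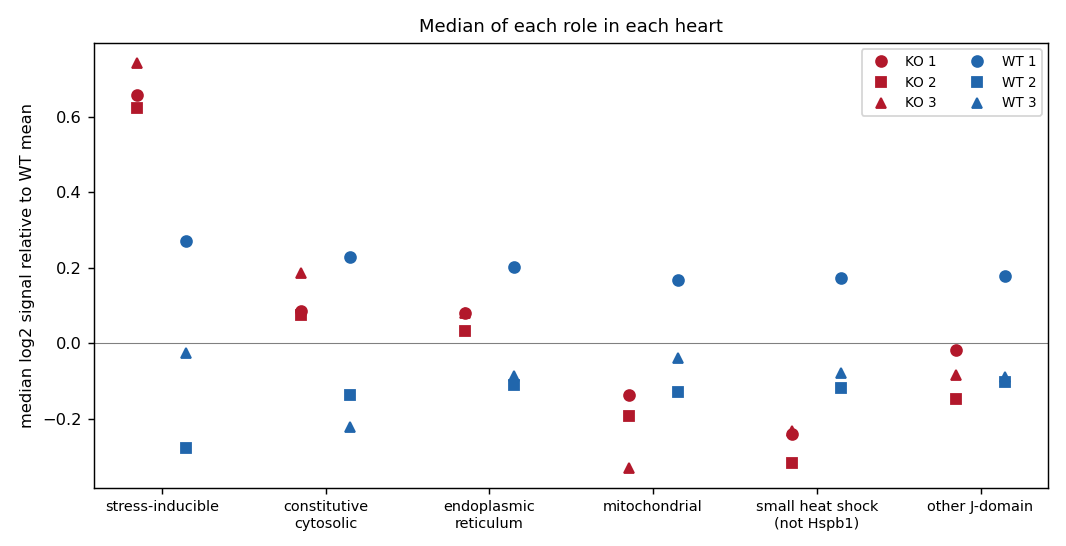
For each heart, the median over the tested members of a role of log2 signal relative to the WT mean of each gene (y axis), by role (x axis), with KO hearts in red left of WT hearts in blue and replicate number by symbol. For the stress-inducible role the KO hearts sit at 0.62 to 0.74 and the WT hearts at -0.28 to 0.27, while for the constitutive cytosolic role the groups overlap.

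The endoplasmic reticulum held 12 members, of which 1 rose and none of the rest passed, with a median of 0.05. Dnajc3, known as p58IPK, a lumenal cochaperone that also inhibits the eIF2α kinase PERK, gave 269.8, 277.8 and 298.2 in KO 1 to 3, against 193.3, 153.3 and 152 in WT 1 to 3. The groups did not overlap, and the log2 difference was 0.72 (SE 0.166, limma adjusted p = 0.0059). Its 4 other probe sets were positive too, at 0.28 to 0.55, with overlap in 3 of them, and as the mean of its probe sets Dnajc3 was at 0.44 and did not pass (adjusted p = 0.181). Nor did it pass without KO 3 (limma adjusted p = 0.0516).

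Hspa5, the lumenal HSP70 known as BiP, gave 1957.4, 1703.2 and 1898.4 in KO 1 to 3, against 1512.7, 1390 and 1420.8 in WT 1 to 3. All KO hearts were above all WT hearts, and the log2 difference of 0.36 (SE 0.127) did not pass as deposited (limma adjusted p = 0.135), while it passed with quantile normalization (0.38, limma adjusted p = 0.018), with median centring (0.37, adjusted p = 0.0267) and with scaling to a common trimmed mean (0.38, 0.0354). Hsp90b1, the lumenal HSP90 known as GRP94, was at 0.26 (SE 0.147) with overlapping groups. Dnajc18, a membrane J protein, was at -0.41 (SE 0.179), with 40.3, 38.1 and 48 in KO 1 to 3, against 78.7, 50.5 and 57.1 in WT 1 to 3, and did not pass (limma adjusted p = 0.287). Dnajb9, an inducible lumenal J protein, was at -0.05 (SE 0.155).

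Of the 6 tested small heat shock genes other than Hspb1, 0 rose, 2 fell and 4 did not pass, with 4 negative differences, 2 positive ones and a median of -0.26. Hspb6, known as HSP20, a phosphoprotein of cardiac and smooth muscle, gave 4398.3, 3330.1 and 2629 in KO 1 to 3, against 5504.3, 4660.4 and 4732.9 in WT 1 to 3. The groups did not overlap, although KO 1 lay near the lowest WT heart. The log2 difference was -0.55 (SE 0.123, limma adjusted p = 0.00423), and -0.74 without KO 1 (adjusted p = 1.99e-06). With quantile normalization (-0.48, limma adjusted p = 0.0835) and with scaling to a common trimmed mean (-0.53, 0.087) it did not pass, nor did it without WT 1 (-0.47, 0.218) or without KO 3 (-0.37, 0.178).

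Hspb7, the cardiac small heat shock protein cvHSP, gave 3945.1, 3799.3 and 3518.5 in KO 1 to 3, against 5291.2, 4553.4 and 5019.9 in WT 1 to 3. The groups were apart, and the log2 difference was -0.40 (SE 0.107, limma adjusted p = 0.0231), and its other probe sets gave -0.44 without overlap and -0.45 with overlap. It passed under the 3 rescalings (-0.34 to -0.38) and did not pass without WT 1 (-0.35, limma adjusted p = 0.0737), KO 2 (0.0924), KO 3 (0.229) or WT 3 (0.119). Hspb8, which with the cochaperone BAG3 sends damaged muscle proteins to autophagy, gave 1093.2, 972.6 and 1104.8 in KO 1 to 3, against 1558.8, 1226.6 and 1315.5 in WT 1 to 3. All KO hearts were below all WT hearts, and its log2 difference of -0.36 (SE 0.137) did not pass as deposited (limma adjusted p = 0.174), but it did with quantile normalization (-0.35, 0.0162) and trimmed mean scaling (-0.34, 0.0304). The other Hspb8 probe sets gave -0.22 and -0.21, both with overlap of the groups. Hspb2 and Hspb3, which form a complex with each other in muscle, were at 0.04 (SE 0.159) and 0.01 (SE 0.178) with overlapping groups. Hspb11, which serves intraflagellar transport, was at -0.16 (SE 0.174), also with overlap.

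Of the 9 mitochondrial members 0 passed in either direction, 8 had negative differences, and the median was -0.20. Over all genes tested 7119 of 12946 differences were negative. Dnajc28, a J protein, had the smallest p of the role, with 177.8, 137 and 103.1 in KO 1 to 3, against 223.4, 178.9 and 191.5 in WT 1 to 3 (log2 difference -0.48, SE 0.177, limma adjusted p = 0.15). Without KO 1 it was at -0.66 and passed (limma adjusted p = 0.0402). Dnajc30, linked to ATP synthase, was at -0.38 (SE 0.160), and Dnajc15, a J protein of the inner membrane, at -0.34 (SE 0.147), both with the KO hearts below the WT hearts and neither past the test (limma adjusted p = 0.274 each). Hspd1 and Hspe1, the matrix chaperonin and its lid, were at -0.21 (SE 0.128) and -0.11 (SE 0.146), and Hspa9, the matrix HSP70, was at -0.03 (SE 0.139). The groups of these 3 overlapped.

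The other J-domain role held 23 genes, of which 17 were tested and 0 passed (median -0.11). The nearest to passing was Dnajb4, a J protein of the same class as Dnajb1, with 980.6, 793.9 and 852.7 in KO 1 to 3, against 839.3, 621.4 and 607 in WT 1 to 3. WT 1 lay among the KO hearts, and the log2 difference was 0.35 (SE 0.150, limma adjusted p = 0.279). It passed with quantile normalization (0.38, 0.0404) and with trimmed mean scaling (0.37, 0.047). Dnajc9, a histone cochaperone, was at -0.29 (SE 0.171), and Dnajc12, a cochaperone of aromatic amino acid hydroxylases, at -0.28 (SE 0.170), both with groups apart and neither past the test. Dnajc22 was at -0.43 (SE 0.268) on signals of 0.8 to 17.3 in the KO hearts and 2.8 to 24.9 in the WT hearts. Dnajb2, a neuronal and muscle J protein, was at -0.20 (SE 0.164) and Dnajc8, a splicing-related J protein, at -0.07 (SE 0.152), and the groups of these 3 overlapped.

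**Figure D4:**
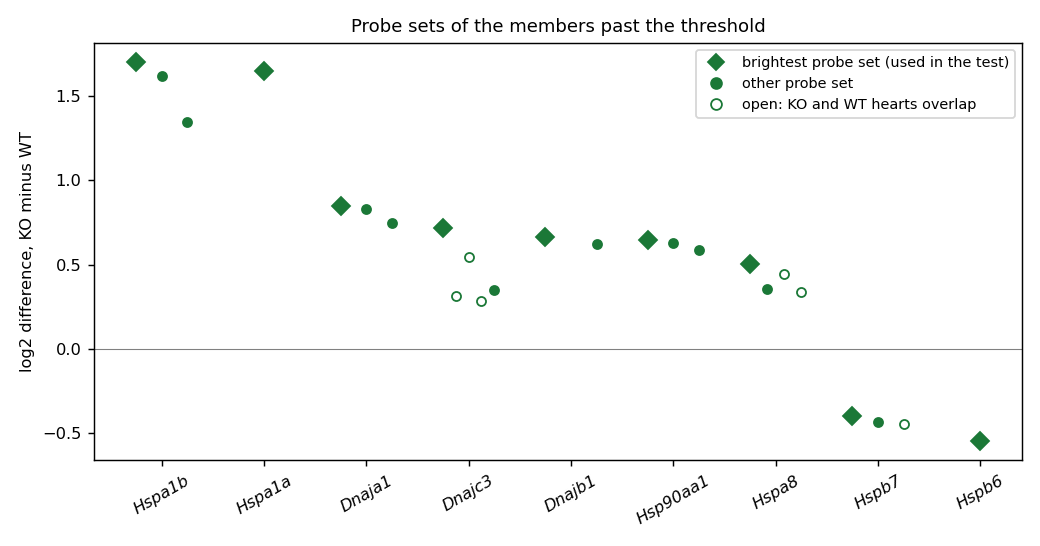
Log2 difference (KO minus WT, y axis) of every probe set past the filter for the 9 members that passed the test (x axis). Diamonds are the brightest probe sets, open symbols have overlapping groups. All 25 probe sets have the sign of the brightest one, and in 19 of them the groups do not overlap.

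The members that passed were read by 25 probe sets past the filter. All 25 had the sign of the brightest probe set of their gene, and 19 had no overlap between the groups. Probe sets of one gene share the RNA of the same hearts and are not replicates.

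Partners of the chaperones outside the families were given as a list, 40 tested, of which 2 rose, 1 fell and 37 did not pass (median -0.05). Fkbp5, an HSP90 cochaperone that glucocorticoids induce, gave 137, 113.6 and 137.5 in KO 1 to 3, against 55.4, 65 and 56.9 in WT 1 to 3. Its log2 difference was 0.95 (SE 0.171, limma adjusted p = 1.82e-04), and the call was kept in all 19 alternatives. Fkbp4, its relative in the same HSP90 complexes, gave 615.9, 485 and 450.9 in KO 1 to 3, against 873, 729.6 and 732.3 in WT 1 to 3. It moved opposite to Fkbp5 and without overlap, and the log2 difference was -0.58 (SE 0.152, limma adjusted p = 0.0192). Serpinh1, the collagen chaperone HSP47, was at 0.53 (SE 0.144, limma adjusted p = 0.0258). The calls of Fkbp4 and Serpinh1 were each lost in 7 alternatives. Without shared-probe sets Fkbp4 was at -0.02, and it did not pass without KO 2 (limma adjusted p = 0.133), KO 3 (0.215) or WT 1 (0.105). Serpinh1 did not pass without KO 2 (limma adjusted p = 0.0769), KO 3 (0.355), WT 2 (0.128) or WT 3 (0.122). Of the chaperonin TRiC and prefoldin 0 of 14 passed, with differences from -0.20 (Vbp1) to 0.13. Cct6a was at -0.19, Cct2 at -0.18 and Pfdn2 at -0.17.

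Among 22 tested stress genes of the endoplasmic reticulum outside the families 1 rose, 0 fell and 21 did not pass, with 18 positive and a median of 0.19. It was Manf, a secreted protein of that compartment, with 433.8, 559.3 and 701.5 in KO 1 to 3, against 312.7, 229.2 and 258 in WT 1 to 3. The log2 difference was 1.02 (SE 0.168, limma adjusted p = 4.05e-05), and no KO heart overlapped a WT heart.

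Other lists moved with the groups and are given beside the chaperones. Of 21 tested immediate early genes 3 rose, 0 fell and 18 did not pass (median 0.20). Klf4 was at 0.78, Klf2 at 0.66 and Ier3 at 0.64, while Egr1 was at -0.49 and did not pass. The calls of Klf4, Klf2 and Ier3 were lost in 5, 6 and 5 alternatives, and all 3 were lost without KO 3. The summed signal of the list was 3136.7 to 3838.4 in the KO hearts and 2664.5 to 3254 in the WT hearts, with overlap. Of 6 atrial myocyte markers 6 rose, with a summed signal of 13560 to 16182 in the KO hearts and 2922 to 9570 in the WT hearts. Of 7 adipocyte markers 4 were tested and 4 rose, with a summed signal of 318 to 1821 in the KO hearts and 75.8 to 100.6 in the WT hearts, and Lep lay at 6.9 or less in every heart. Of 4 fibroblast markers 1 rose, with sums of 5971.9 to 7208.9 in the KO hearts and 4623.1 to 5508.6 in the WT hearts. Of 3 smooth muscle markers 2 rose, with sums of 2303.7 to 3898.7 in the KO hearts and 1376.3 to 2232.1 in the WT hearts. Of 2 tested skeletal muscle markers 1 rose and 1 fell, with sums over 6 of 786.6 to 1234.9 in the KO hearts and 1468.7 to 1771.2 in the WT hearts. Most of these sums was Acta1, which fell, at 745.4 to 1177.3 in the KO hearts and 1452.3 to 1741.3 in the WT hearts. Tnni2, which rose, had overlapping groups. None of the tested leukocyte, endothelial or erythroid markers passed, and their sums overlapped between the groups. The part of these markers in the chaperone results was not tested. Among the KO hearts Hspa1a was highest in KO 1 (102.9), which had the highest atrial sum (16182) and the lowest adipocyte sum (318). Among the WT hearts Hspa1a was highest in WT 3 (17.5), which had the highest atrial sum (9570) and the highest adipocyte sum (100.6). These WT signals of Hspa1a could not be told from background. The brightest Hspa1b probe set ranked the hearts otherwise. It was highest in KO 2 (152.1), with an atrial sum of 14948 and the highest adipocyte sum (1821). Among the WT hearts it was highest in WT 1 (36.1), with an atrial sum of 3668 and an adipocyte sum of 86.7. The other Hspa1b probe sets ranked KO 1 (118.9 and 80.3) and WT 3 (29.2 and 18.8) highest, as Hspa1a did. In the dimmer of them the WT signals, 14.3 to 18.8, also lie near the array median. The ventricular markers had 8 of 8 negative differences, none past the test, from -0.33 (Mybpc3) to -0.03. In whole hearts fewer cells of a type and less RNA per cell cannot be told apart.

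**Figure D5:**
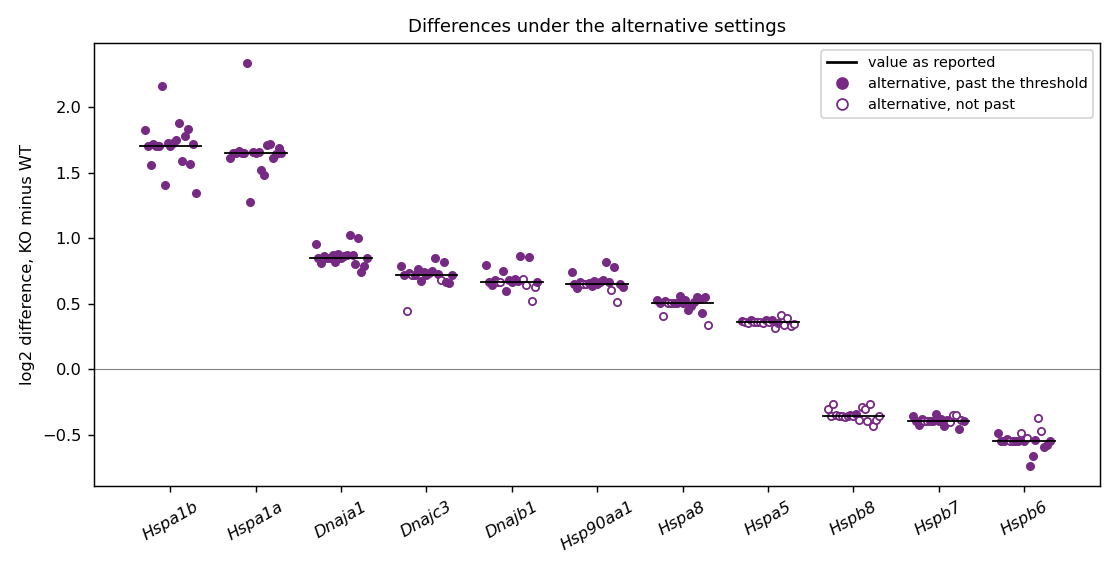
Log2 difference (KO minus WT, y axis) of the 9 members past the threshold, with Hspa5 and Hspb8, under each alternative that could give a value (points) and as reported (black line), by gene (x axis). Filled points passed an adjusted p of 0.05. Hspa1a, Hspa1b and Dnaja1 are filled throughout, and no point changes side of 0.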

How the data were processed

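RNA of 6 hearts was labelled with biotin and hybridised to one array each. The authors deposited a MAS5 intensity (linear units) for each probe set, per the submitters' processing notes. No scaling target or detection call was used here. The deposited intensity was used with no further scaling, as log2(signal + 16). Of 45099 probe sets 34945 outside the controls have 1 symbol. A probe set was kept at or above the 40th percentile of mean log2 signal (a signal of 8.17), and each of 12946 genes was read from its brightest probe set. KO and WT were compared with limma 3.58.1 (lmFit and eBayes with an intensity trend, R 4.3.3). Tests were two-sided and adjusted by Benjamini-Hochberg over all genes. The fit was tested on simulated data, where part of the added differences was not recovered. A gene that did not pass may therefore still differ. A variance shared between genes carries much of each p-value (45.6 prior degrees of freedom, infinite in several fits that leave out a heart). The number of arrays limits the precision. Replicate numbers do not pair the mice: deviations from the group means correlated at 0.027, -0.016 and 0.029 for equal numbers.

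The members and lists were chosen with earlier results of these data known. The genes named are Esrra, Hspa1a, Hspa1b, Hspb1, members past the threshold, the 3 brightest and the 4 of smallest p in each role, and in the partner, chaperonin, immediate early and endoplasmic reticulum lists those past the threshold or else the 4 of smallest p. Dnajb6, Hspa4, Hspa13, Hspb2, Hspb3, Hsph1, Egr1, Mybpc3, Lep, Acta1 and Tnni2 stand outside this and were added after their values were seen. Promoters are from RefSeq. Alternatives changed the scaling, pseudocount, filter, variance model, probe sets, a replicate block and the hearts included. The protein comparison planned was not run, since no protein table was used here.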

Additional observations from a re-analysis of the deposited data

How the results depend on the processing

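The calls of Hspa1a (1.28 to 2.34), Hspa1b (1.34 to 2.16) and Dnaja1 (0.74 to 1.03) were kept in all 19 alternatives, and no member past the test changed direction. With no filter on dim probe sets 48 genes were higher and 18 lower, with 3 members higher and 0 lower. With no intensity trend 114 genes were higher and 57 lower, with 4 members higher and 0 lower. With array weights 434 genes were higher. Without KO 1 and WT 1, chosen after seeing the data, 431 genes and 10 members were higher. Leaving out one heart at a time gave 105 to 301 higher and 22 to 208 lower genes, 4 to 7 higher and 0 to 3 lower members, and an Esrra difference of -3.39 to -2.12. The fewest genes came without WT 1, where Esrra was at -2.59 and did not pass (limma adjusted p = 0.0675). No lower member was left without WT 1 or without KO 3, where 22 and 78 genes were lower over all genes tested. Without shared-probe sets the inducible and constitutive medians were 0.755 apart, against 0.605. With the replicate number as a block 237 genes were higher and 175 lower, and the counts of members stayed at 7 and 2. Some genes that did not pass as reported changed sign, of which Hspa4l (-0.35) and Cct6a (-0.19) had not been near 0. Dnaja2 was at 0.015 with quantile normalization, 0.0092 with median centring, 0.016 with trimmed mean scaling, 0.037 with array weights and 0.013 without shared-probe sets. With array weights Dnajb9 was at 0.018, Dnajc8 at 0.032 and Hspa9 at 0.0044. Hspa9 was at 0.0615 as the mean of probe sets, and Hspa4l at 0.054 without shared-probe sets. Without KO 1 and WT 1 the values were 0.038 for Dnaja2, 0.026 for Dnajb9, 0.014 for Dnajc8, 0.019 for Hspa9, 0.091 for Hspe1 and 0.0022 for Cct6a. With hearts left out Dnaja2 ranged from -0.063 to 0.076, Dnajb9 from -0.12 to 0.070, Dnajc8 from -0.16 to 0.063, Hspa9 from -0.064 to 0.033, Hspe1 from -0.25 to 0.091 and Cct6a from -0.28 to 0.0022. The cause of these changes was not tested. The WT signals of Hspa1a lie near the array median, which limits its ratio.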
